A study of Mus musculus with 18 samples.

Results

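Mouse esophageal organoids that carried a guide against Tgfbr2 came from 2 numbered lines, and the 2 RNA-seq libraries of line 2 were compared with the 2 of line 1. The libraries were chosen by the number in their labels, 4 of the 18 in the series, and every autosomal gene was considered. That is 23215 of the 24421 genes in the deposited table, of which 12977 had enough counts to be tested. Line 2 and line 1 were both labelled Trp53-/-, Myc OE (overexpressing Myc), sgCdkn2a and sgTgfbr2, and both were described as premalignant. The 3 sgScr libraries are Trp53-/-, Myc OE and sgCdkn2a with a control guide. Their values are given as a level beside the lines, and neither line was tested against sgScr. They did enter the fit, through the filter on low counts, the scaling and the shared estimate of spread. Organoids grow from single epithelial cells as small hollow or solid bodies inside a matrix gel. The medium listed for all 3 groups held A83-01, which blocks the type I receptor for TGF-beta, at 2 µM, with EGF, FGF10, Noggin, R-spondin 1 and Wnt-3A conditioned medium. The labels do not say whether a line number stands for a guide, a clone or a culture, so "line" is a working word, and line and culture cannot be told apart. They also do not say whether the 2 libraries of a line came from separate cultures or animals. The p-values therefore reflect the spread of the libraries within the 3 groups alone, and that spread may be technical.

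Tgfbr2 encodes the type II receptor that binds TGF-beta and phosphorylates the type I receptor, which in turn activates Smad2 and Smad3. In stratified squamous epithelium the pathway is known for holding back division of basal cells and for shaping matrix, adhesion and inflammatory genes. The esophageal lining has a basal layer marked by Krt5, Krt14 and Trp63, above which cells leave the cycle and switch to Krt4 and Krt13.

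The libraries held 21741565 and 15405369 counts in line 2, 18414807 and 16692651 in line 1, and 17068198 to 21784140 in sgScr. In each, 15565 to 16008 genes were detected, and 3 counts stood for 0.134 to 0.193 CPM (counts scaled to a fixed library size). Values below are CPM scaled by TMM, a correction for differences in RNA composition, and the counting intervals and floors given cover counting error only. Over all genes tested, log2 CPM correlated at 0.995 within either line, at 0.974 to 0.977 between the lines, and at 0.948 to 0.968 between a line and sgScr, as a description across genes that are not independent replicates. Markers of basal squamous cells were counted in both lines. The 8 markers (Krt5, Krt14, Krt15, Trp63, Itga6, Itgb4, Col17a1 and Sox2) summed to 9794 and 9556 CPM in line 2. Their sums were 6705 and 6520 CPM in line 1 and 11330 to 11960 CPM in sgScr. The suprabasal markers (Krt4, Krt13, Krt1, Krt10, Ivl and Sprr3) summed to 99.9 and 94.9 CPM in line 2. Their sums were 53.1 and 50.5 CPM in line 1 and 174 to 215.5 CPM in sgScr. Krt4, Krt13 and Sprr3 averaged higher in line 2 than in line 1. Ivl (15.6 against 18.3 CPM) and Krt10 (4.17 against 5.41 CPM) averaged lower, and Krt1 was low in every library. The columnar markers summed to 1123 and 1221 CPM in line 2, 1155 and 1158 CPM in line 1 and 881 to 903 CPM in sgScr, nearly all of it Krt8 and Krt18. Those other than Krt8 and Krt18 averaged a sum of 8.44 CPM in line 2 and 3.30 CPM in line 1, mostly Krt20. Markers of other cell types were low. The endothelial and the neural and melanocyte markers each summed to under 3 CPM in every library. The fibroblast markers summed to 4.56 and 2.31 CPM in line 2 and 3.30 and 4.31 CPM in line 1, with Col3a1 and Lum at 0. The muscle markers summed to 5.09 and 4.76 CPM in line 2 and 2.88 and 3.09 CPM in line 1. The immune markers summed to 57.1 and 60.3 CPM in line 2 and 34.5 and 36.6 CPM in line 1, nearly all of it Cd68, with Cd3e, Adgre1, Lyz2 and Tyrobp at 0. Line 2 thus lay above line 1 in the summed muscle and immune markers. Reads of overlapping or antisense genes cannot be told apart, since the strand setting of the counting is not given.

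The targeted gene was counted in both lines. Tgfbr2 (chr9:116084293-116175360 of GRCm38, minus strand) stood at 102 and 85.4 CPM in line 2, against 126 and 128 CPM in line 1 and 193, 189.7 and 220.0 CPM in sgScr. Both line 2 libraries lay below both line 1 libraries, and all 4 lay below sgScr. The log2 fold change, line 2 over line 1, was -0.43 ± 0.11 (SE; edgeR adjusted p = 0.00915), and the difference did not pass without line 2 replicate 2, line 1 replicate 1 or line 1 replicate 2 (adjusted p = 0.129, 0.0635 and 0.0626). The count of a transcript can stay the same when its reading frame is broken, and the guide's target site is not given in the labels. In bulk RNA, fewer cells of a kind and less RNA per cell cannot be told apart, here and for every gene that follows.

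Smad3, the signal transducer below the receptor, stood at 206 and 171 CPM in line 2, against 166 and 173 CPM in line 1 and 95.3, 87.2 and 106 CPM in sgScr. Its line libraries overlapped, with a log2 difference of 0.15 ± 0.11 (adjusted p = 0.322). Myc, the overexpressed oncogene, stood at 628 and 531 CPM in line 2, against 428 and 440.3 CPM in line 1 and 415, 307 and 411 CPM in sgScr (log2 fold change 0.42 ± 0.13, adjusted p = 0.0293). It was higher in line 2 and lost the call without line 2 replicate 1, line 1 replicate 1 or line 1 replicate 2 (adjusted p = 0.269, 0.172 and 0.113). Trp53 (log2 0.27 ± 0.09, adjusted p = 0.0446) and Cdkn2a (log2 0.27 ± 0.09, adjusted p = 0.0479) sat at the edge of the threshold and dropped out when any 1 of the 4 line libraries or sgScr replicate 1 was left out. Without these, the adjusted p ran from 0.072 to 0.328 for Trp53 and from 0.0763 to 0.323 for Cdkn2a, and other scalings or filters also ended the calls. Transcripts of Trp53 were counted at 74.6 and 78.0 CPM in line 2 and 60.2 and 65.9 CPM in line 1, although both lines are labelled Trp53-/-. Cdkn2b, the neighbour of Cdkn2a, stood at 63.2 and 62.1 CPM in line 2 and 54.7 and 63.6 CPM in line 1, with overlapping libraries (log2 0.08 ± 0.11, adjusted p = 0.604).

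The lines differed across a large part of the transcriptome. By edgeR's quasi-likelihood test at a Benjamini-Hochberg adjusted p of 0.05, 3419 of the 12977 autosomal genes passed, 1688 higher and 1731 lower in line 2. Over all 13438 genes tested, 26.3% passed, 13.2% higher and 13.1% lower, and this is the background for the counts of gene groups below. A difference of at least 2-fold was reached by 497 autosomal genes that were higher in line 2 and 321 that were lower. Together these are 6.3% of the autosomal genes tested. At least 4-fold was reached by 165 and 96. Over all 13438 genes tested, 3.91% were at least 2-fold higher and 2.48% at least 2-fold lower, 6.38% together. The libraries of the lines did not overlap in 69.3% of all genes tested, so that a gap between 2 libraries and 2 others says little by itself. An exact permutation test of 2 against 2 libraries cannot go below p = 0.333. Counts depended on having both libraries of a line. Leaving out line 2 replicate 1, line 2 replicate 2, line 1 replicate 1 or line 1 replicate 2 gave 1498, 1909, 1405 and 1869 autosomal genes, with the lone library then assumed to vary like the others.

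**Figure D1:**
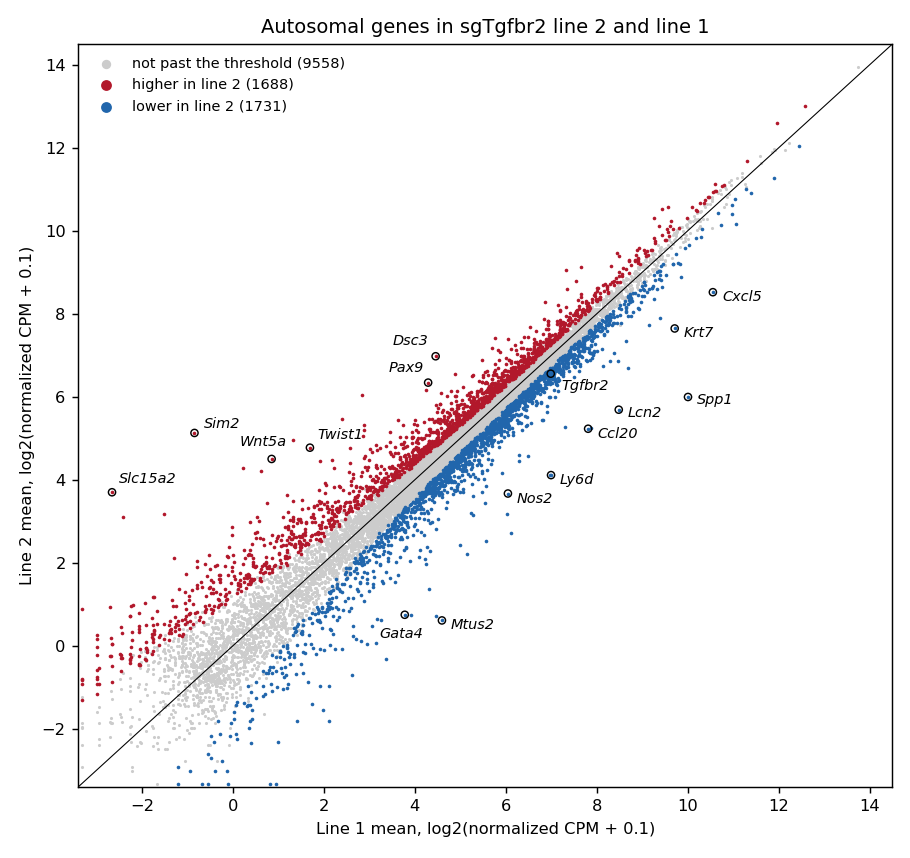
Mean normalized CPM of each autosomal gene tested in line 2 (vertical) and line 1 (horizontal), on a log2 scale after adding 0.1, with the 1688 genes higher and 1731 genes lower in line 2 coloured. Slc15a2 and Sim2 lie farthest above the diagonal among the genes marked, and Mtus2 and Spp1 farthest below it.

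Set beside the control guide, genes at least 2-fold higher in line 2 did not fall on one side. For those at least 2-fold lower, sgScr most often lay below both lines. Of the 497 genes at least 2-fold higher in line 2, the sgScr mean lay above both lines for 104 (20.9%), between them and nearer line 2 for 139, between them and nearer line 1 for 114, and below both for 140 (28.2%). Of the 321 that were at least 2-fold lower in line 2, it lay above both for 43 (13.4%), nearer line 2 for 72, nearer line 1 for 49, and below both for 157 (48.9%). Over all autosomal genes tested the mean of sgScr lay above both lines for 40.7% and below both for 39.2%.

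The developmental transcription factors Sim2 and Twist1 were low or nearly absent in line 1 and present in line 2. Sim2, a bHLH-PAS transcription factor at chr16:94084931-94127032, stood at 33.9 and 35.8 CPM in line 2, against 0.213 and 0.699 CPM in line 1 and 46.5, 45.1 and 49.1 CPM in sgScr. Twist1, a bHLH regulator of mesenchymal development, stood at 26.6 and 27.8 CPM in line 2, against 2.82 and 3.44 CPM in line 1 and 34.7, 33.0 and 35.4 CPM in sgScr. For both, line 2 lay near sgScr and line 1 far below both, with log2 fold changes of 6.27 ± 0.24 (adjusted p = 7.12e-10) and 3.12 ± 0.15 (adjusted p = 7.7e-09). Slc15a2, which encodes the oligopeptide transporter PEPT2, had 487 counts in line 2 and 2 in line 1, at 12.7 and 13.1 CPM in line 2, against 0 and 0.116 CPM in line 1 and 2.71, 2.48 and 3.02 CPM in sgScr. Its ratio was 230.7, with a 95% counting interval of 63.5 to 1911, and the fitted fold change is not a bound at such counts. Wnt5a, a ligand of noncanonical Wnt signalling, stood at 23.6 and 21.4 CPM in line 2, against 1.60 and 1.805 CPM in line 1 and 11.4, 11.3 and 12.6 CPM in sgScr (log2 3.73 ± 0.19).

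Other genes among the highest encode adhesion, trafficking and matrix proteins. Dsc3, a desmosomal cadherin of basal keratinocytes, stood at 130.5 and 121 CPM in line 2, against 22.5 and 21.2 CPM in line 1 and 141, 143 and 147 CPM in sgScr (log2 2.52 ± 0.10, adjusted p = 7.12e-10). Nid1, a basement membrane linker, stood at 50.1 and 38.5 CPM in line 2, against 3.997 and 6.41 CPM in line 1 and 5.95, 4.71 and 7.01 CPM in sgScr (log2 3.10 ± 0.22). In Dsc3 line 1 stood apart below the other groups, whereas in Nid1 line 1 lay near sgScr and line 2 above both. Also named were the teneurin Tenm3 (log2 3.67), the small GTPase Rab6b (3.69), the potassium channel subunit Abcc8 (2.76), the actin regulator Evl (2.57) and the cornified envelope precursor Sprr1b (3.21). Sprr1b belongs to a multigene family whose reads can be shared, so its own count is uncertain.

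In each of the 12 lowest genes line 1 lay above both line 2 and sgScr. Spp1, which encodes the secreted matrix protein and cytokine osteopontin (chr5:104435118-104441050), had the highest line 1 level of the 12, at 63.8 and 63.4 CPM in line 2, against 1061 and 993 CPM in line 1 and 29.6, 28.4 and 26.6 CPM in sgScr (log2 -4.01 ± 0.10, adjusted p = 4.39e-12). Steap4, a metalloreductase induced by inflammatory cytokines, stood at 19.7 and 14.7 CPM in line 2, against 115 and 135 CPM in line 1 and 1.50, 2.23 and 2.15 CPM in sgScr (log2 -2.85 ± 0.15). Aim2, a sensor of cytosolic DNA, stood at 9.65 and 8.23 CPM in line 2, against 62.4 and 66.9 CPM in line 1 and 2.77, 3.84 and 4.09 CPM in sgScr (log2 -2.84 ± 0.15). In these 3 genes line 2 lay between line 1 and sgScr. The libraries of the lines do not overlap in any of the 12, because the naming rule required it. Gata4, a transcription factor of endoderm and stomach, stood at 1.61 and 1.54 CPM in line 2, against 14.2 and 12.99 CPM in line 1 and 2.34, 1.55 and 2.2 CPM in sgScr (log2 -3.10 ± 0.24), so that line 2 lay at about the sgScr level. Ly6d, a membrane protein of squamous cells, stood at 16.5 and 17.8 CPM in line 2, against 124 and 130.2 CPM in line 1 and 9.26, 11.6 and 10.6 CPM in sgScr (log2 -2.89 ± 0.12). The remainder were Mtus2 (log2 -4.05), Lypd2 (-3.87), Glipr1 (-3.79), Sprr2d (-3.44), the aspartoacylase gene Aspa (-3.07), the T cell costimulatory ligand Cd80 (-3.00) and Skint3 (-2.99). Mtus2, Spp1 and Steap4 lie on chromosome 5, which was lower as a whole in line 2. Sprr2d and Skint3 belong to multigene families, and their counts are uncertain.

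**Figure D2:**
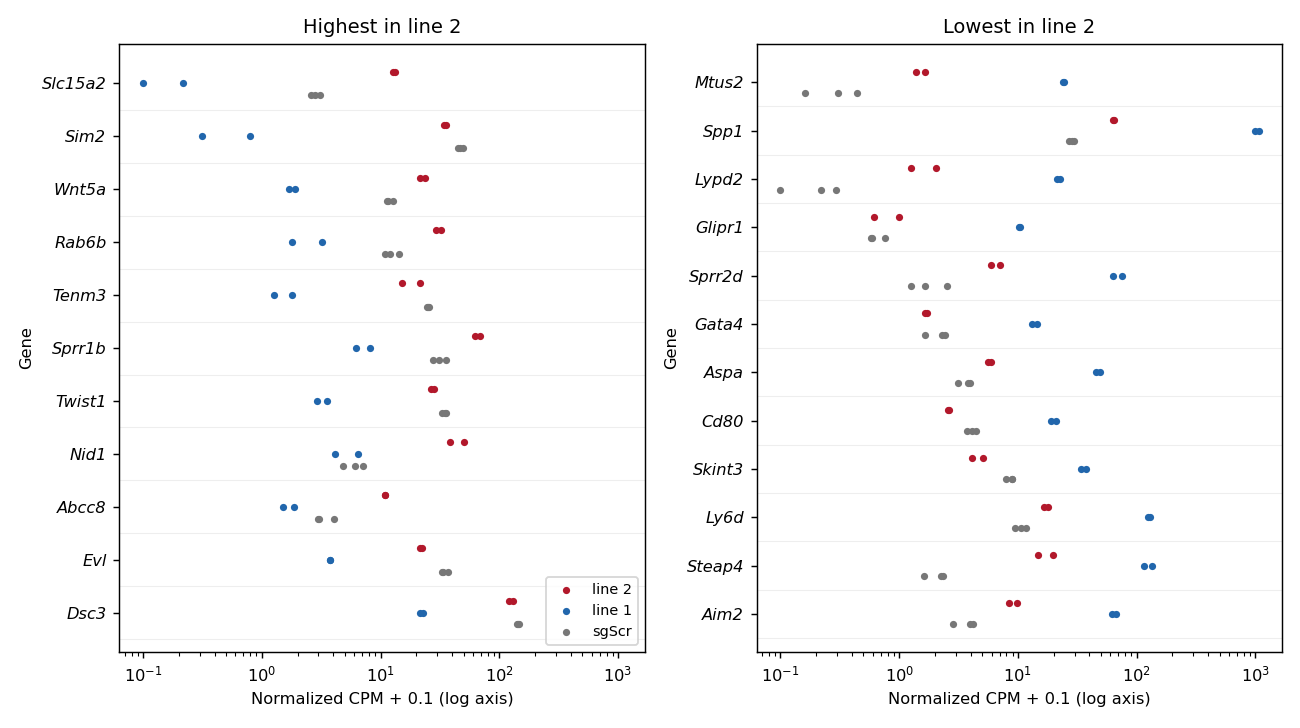
Normalized CPM plus 0.1 on a log axis in each library of line 2 (red), line 1 (blue) and sgScr (grey), for autosomal genes with the highest and the lowest log2 fold changes by the naming rule. In Sim2, Twist1 and Dsc3 the line 1 points stand apart from the other groups, and for Spp1 line 2 lies at 63.8 and 63.4 CPM, against 1061 and 993 CPM in line 1.

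Cytokine and chemokine transcripts were lower in line 2. Among 19 tested genes of the chemokine and IL-1 list, 15 passed as lower and 1 as higher, with a median log2 fold change of -1.25 (13.1% of all genes tested were lower, with a median near 0). Ccl20, the chemokine that recruits CCR6-bearing lymphocytes, stood at 39.3 and 35.4 CPM in line 2, against 233 and 216 CPM in line 1 and 17.3, 18.7 and 16.9 CPM in sgScr (log2 -2.58 ± 0.10, adjusted p = 7.68e-10). Cxcl5, a neutrophil chemokine, stood at 387 and 347 CPM in line 2, against 1491 and 1511 CPM in line 1 and 118, 104 and 128 CPM in sgScr (log2 -2.03 ± 0.11). Csf3, which encodes the granulocyte growth factor G-CSF, stood at 105 and 102 CPM in line 2, against 404 and 423 CPM in line 1 and 39.98, 34.6 and 48.7 CPM in sgScr (log2 -1.998 ± 0.12). All 3 had the same order, with line 1 highest, line 2 next and sgScr lowest, and no overlap. Cxcl2 stood at 129 and 103 CPM in line 2, against 308 and 315 CPM in line 1 and 41.8, 37.8 and 41.8 CPM in sgScr (log2 -1.43 ± 0.11). The 1 member that was higher, named after its values were seen, was Il1f9, an IL-36 cytokine, at 2.32 and 2.83 CPM in line 2 and 0.586 and 0.466 CPM in line 1 (log2 2.26 ± 0.41). Chromosome 5, which is lower as a whole in line 2, holds 5 of the 19 genes, 3 of them lower, and the median of the members off chromosomes 5 and 14 was -1.09. Cxcl5 and Cxcl2 are among these 5. Leaving out line 2 replicate 1, line 2 replicate 2, line 1 replicate 1 or line 1 replicate 2 left 12, 14, 15 and 13 lower members.

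The NF-kB list, which holds the factor's subunits, inhibitors and targets (Ccl20 among them), lay on the same side. It had 15 lower and 0 higher genes of 22 tested, none of them on chromosome 5, with a median of -0.47, and 13, 10, 8 and 13 lower genes with line 2 replicate 1, line 2 replicate 2, line 1 replicate 1 or line 1 replicate 2 left out. Nfkbiz, an atypical inhibitor that also acts as a coactivator, stood at 138 and 123 CPM in line 2, against 237 and 247 CPM in line 1 and 65.3, 54.0 and 61.4 CPM in sgScr (log2 -0.89 ± 0.10). Tnfaip2, a TNF-induced gene, stood at 1224 and 1080.2 CPM in line 2, against 2192 and 2084 CPM in line 1 and 661, 602 and 719 CPM in sgScr (log2 -0.89 ± 0.10). Irf1, an interferon regulatory factor, stood at 81.2 and 77.4 CPM in line 2, against 137 and 139 CPM in line 1 and 40.8, 43.1 and 49.0 CPM in sgScr (log2 -0.79 ± 0.10). In each, line 2 lay between line 1 and sgScr. The members below the threshold included the inhibitor Nfkbia, at 498 and 496 CPM in line 2 and 579.9 and 566 CPM in line 1 (log2 -0.21 ± 0.09, adjusted p = 0.102), named after its values were seen. Beside these lists, the macrophage marker Cd68 was higher in line 2, at 50.9 and 54.9 CPM in line 2 and 30.6 and 31.2 CPM in line 1 (log2 0.77 ± 0.19, adjusted p = 0.00836). That call did not hold without line 2 replicate 2, line 1 replicate 1 or line 1 replicate 2. Whether immune cells have a part in the lists was not tested, and the pan-leukocyte marker Ptprc was at 0 to 0.32 CPM in the 4 line libraries.

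Innate defence genes had 7 lower and 1 higher members of 17 tested, with a median of -0.64. Lcn2, the siderophore-binding lipocalin of the acute phase, stood at 54.6 and 48.3 CPM in line 2, against 317 and 398 CPM in line 1 and 2.52, 1.12 and 5.42 CPM in sgScr (log2 -2.79 ± 0.25, adjusted p = 2.74e-06). Nos2, the inducible nitric oxide synthase, stood at 13.6 and 11.6 CPM in line 2, against 58.9 and 72.9 CPM in line 1 and 1.50, 0.778 and 1.74 CPM in sgScr (log2 -2.38 ± 0.17). Ltf, which encodes lactoferrin, stood at 118 and 119.6 CPM in line 2, against 225 and 234 CPM in line 1 and 30.8, 25.5 and 33.0 CPM in sgScr (log2 -0.95 ± 0.11). Line 1 was the higher line in all 3, and line 2 still lay above sgScr. Interferon-stimulated genes had 5 higher and 5 lower of 32, with a median of -0.28. That is 31.2% in either direction, near the 26.3% of all genes tested. The poly-ADP-ribosyltransferase Parp14 was lower (log2 -1.01 ± 0.15) and the signal transducer Stat2 higher (0.75 ± 0.14). Of the MHC class I and peptide loading genes, 8 were lower and 0 higher of 16, among them the immunoproteasome subunits Psmb9 (log2 -0.89 ± 0.17) and Psmb10 (-0.93 ± 0.16) and the proteasome activators Psme1 (-0.54 ± 0.11) and Psme2 (-0.94 ± 0.14, with counts uncertain because of near-identical copies). Other scalings, DESeq2 or a filter of 1 CPM left 3 higher interferon genes. Without line 2 replicate 1, line 2 replicate 2, line 1 replicate 1 or line 1 replicate 2, 1, 2, 1 and 2 interferon genes were higher, 2, 2, 3 and 2 were lower, and 5, 7, 6 and 7 class I genes were lower.

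Promoter sequence was set beside the inflammatory differences, since many chemokine genes are known NF-kB and AP-1 targets. RefSeq promoters (GRCm38.p6, 250 bases before to 50 after the start) were found by symbol for 245 of the 321 lower and 353 of the 497 higher 2-fold genes. The NF-kB motif was searched as GGGNNTTCC and in a longer form with an added T before the last CC, and AP-1 as TGANTCA, on both strands. Sequences below run 5′ to 3′ on the gene's own strand, from 150 to 51 bases before the start. Ccl20 and Cxcl2 are shown because they were among the lower chemokines and hold NF-kB letters. Plaur and Sprr1b are shown because both hold the AP-1 letters and differed in opposite directions. Plaur was 1.84-fold lower in line 2, so its promoter is not among the 245 of the lower 2-fold genes. Capitals mark the motif.
Ccl20 (chr1:83116616-83116715, plus strand): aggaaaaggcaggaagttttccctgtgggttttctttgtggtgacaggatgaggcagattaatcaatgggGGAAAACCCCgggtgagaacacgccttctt
Cxcl2 (chr5:90903749-90903848, plus strand): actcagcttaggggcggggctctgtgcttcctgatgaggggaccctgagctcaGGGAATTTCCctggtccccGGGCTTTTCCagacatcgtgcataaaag
Plaur (chr7:24462333-24462432, plus strand): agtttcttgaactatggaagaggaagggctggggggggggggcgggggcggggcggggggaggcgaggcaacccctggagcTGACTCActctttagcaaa
Sprr1b (chr3:92438830-92438929, minus strand): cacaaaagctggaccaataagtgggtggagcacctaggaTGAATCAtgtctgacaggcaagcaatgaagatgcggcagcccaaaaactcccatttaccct

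Both forms of the NF-kB motif match at the same place in Ccl20, while Cxcl2 holds 2 separate matches to the longer form. Either form was found in 12.7% of the promoters of lower genes and in 6.23% of those of higher genes, beside 8.67% for the autosomal genes tested and 7.0% for all 32851 promoters. AP-1 letters were found in 13.5% and 6.80%, beside 5.35% and 7.81%. Plaur, the urokinase receptor, stood at 11.7 and 13.6 CPM in line 2, against 25.3 and 20.8 CPM in line 1 and 26.8, 25.7 and 22.6 CPM in sgScr (log2 -0.88 ± 0.15), and Sprr1b at 62.8 and 68.1 CPM in line 2, against 7.99 and 6.06 CPM in line 1 and 27.7, 30.9 and 35.5 CPM in sgScr (log2 3.21 ± 0.16). The interferon-stimulated response element was held by 5.71% of lower and 4.25% of higher genes (2.78% of those tested), the NRF2 motif TGACNNNGC by 13.5% and 17.6% (15.2%), the TEAD motif GGAATG by 18.4% and 16.4% (12.1%), and the E-box CACGTG by 7.35% and 5.95% (10.2%). The ratio of observed to expected CpG, a measure of CpG islands, had a median of 0.628 in the promoters of higher genes and 0.406 in those of lower genes, below the 0.766 of the autosomal genes tested. A match describes letters in this window and is not a binding site.

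Genes of the basal squamous layer leaned higher in line 2, and those of the upper layers were mixed. In the basal squamous list 9 genes passed as higher and 0 as lower of 16 tested (13.2% of all genes tested were higher), with a median of 0.33. Pax9, a transcription factor of the esophageal and oral epithelium, stood at 81.1 and 80.7 CPM in line 2, against 18.4 and 20.6 CPM in line 1 and 51.7, 55.1 and 59.6 CPM in sgScr (log2 2.06 ± 0.11, adjusted p = 1.9e-08). Krt15, a keratin of basal cells, stood at 142 and 129.5 CPM in line 2, against 56.6 and 59.8 CPM in line 1 and 237, 207 and 187 CPM in sgScr (log2 1.22 ± 0.11). Krt5 stood at 6191 and 6137 CPM in line 2, against 4062 and 3920.3 CPM in line 1 and 6427, 6311 and 6695 CPM in sgScr (log2 0.63 ± 0.09). Line 2 was the line nearer sgScr in all 3. Trp63, the factor that defines the squamous basal state, stood at 396 and 359 CPM in line 2 and 359.6 and 367 CPM in line 1 with overlapping libraries (log2 0.05 ± 0.09, adjusted p = 0.692), and Sox2, the other squamous lineage factor, did not pass either (log2 0.09 ± 0.10, adjusted p = 0.509). Both were named after their values were seen. With 1 of the 4 line libraries left out, 6 or 7 basal genes were higher.

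The suprabasal and cornified list had 10 higher and 10 lower of 32 tested, with a median of 0.21. Krt13, the keratin of suprabasal esophageal cells, stood at 18.7 and 23.2 CPM in line 2, against 6.34 and 5.36 CPM in line 1 and 152, 146 and 120.2 CPM in sgScr (log2 1.83 ± 0.17). Its level in line 2 was above that in line 1 and far below that in sgScr. Krt4, its partner, was also higher, at 59.5 and 52.2 CPM in line 2 and 21.5 and 22.2 CPM in line 1 (log2 1.35 ± 0.13). Lower members included the envelope genes Sprr2d, Sprr2e, Sprr2f and Sprr2g, all of 1 family, with log2 fold changes of -3.44, -1.65, -1.21 and -1.83, and the differentiation factors Grhl1 (-0.86) and Grhl3 (-0.64). Krt4, Grhl1, Grhl3 and the last 3 Sprr2 genes were named after their values were seen. Among the 4 stress and wound keratins, Krt6a was higher (log2 0.44 ± 0.09, adjusted p = 0.00284), Krt6b was higher (0.51 ± 0.17, adjusted p = 0.0376) and Krt16 lower (-0.35 ± 0.12, adjusted p = 0.0477), and these calls depended on single libraries. Krt6a lost its call without line 1 replicate 2 (adjusted p = 0.0525). Krt6b lost its call under limma-voom and without line 2 replicate 1, line 2 replicate 2 or line 1 replicate 1 (adjusted p = 0.174, 0.120 and 0.295). Krt16 lost its call under limma-voom and without any 1 of the 4 line libraries or sgScr replicate 1 (adjusted p = 0.0546 to 0.334). Krt6a and Krt6b are near-identical, and their counts are uncertain.

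Desmosome genes, which build the junctions that hold keratinocytes together, had 7 higher and 0 lower of 10 tested, with a median of 0.31 and 2, 4, 3 and 4 higher without line 2 replicate 1, line 2 replicate 2, line 1 replicate 1 or line 1 replicate 2. Beside Dsc3, the cadherin Dsc2 stood at 85.0 and 78.5 CPM in line 2, against 43.6 and 44.9 CPM in line 1 and 47.6, 48.9 and 63.0 CPM in sgScr (log2 0.89 ± 0.13). The plaque protein gene Dsp stood at 965 and 844 CPM in line 2, against 623 and 598 CPM in line 1 and 883, 834 and 1111 CPM in sgScr (log2 0.57 ± 0.12, with adjusted p = 0.0658 without line 2 replicate 1). Line 1 was the lowest of the 3 groups in both. Of the integrin and laminin genes, 7 were higher and 1 lower of 21 (3, 7, 3 and 5 higher with the same libraries left out). They included the laminin chain Lama3 (log2 1.25 ± 0.20), the hemidesmosome linker Dst (1.00 ± 0.16) and Itgb4 (0.67 ± 0.13). Dst stood at 1652 and 1368 CPM in line 2, against 739 and 774 CPM in line 1 and 540.4, 471 and 740.0 CPM in sgScr, and line 2 lay above both other groups. Tight junction genes had 1 higher and 5 lower of 19, among them the claudins Cldn3, at 142 and 132 CPM in line 2, against 241 and 269 CPM in line 1 and 17.9, 16.2 and 25.5 CPM in sgScr (log2 -0.89 ± 0.14), and Cldn6 (-3.63 ± 0.46), and occludin, Ocln (-0.65 ± 0.10). Cldn3 lies on chromosome 5, as do 3 of the 19 tested genes of the list, and 8 were lower without sgScr replicate 2 or 3 or without the filter on low counts.

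Genes of simple and columnar epithelia divided, with 5 higher and 5 lower of 15 tested. Krt7 stood at 194 and 206 CPM in line 2, against 843 and 834 CPM in line 1 and 95.9, 75.9 and 102 CPM in sgScr (log2 -2.07 ± 0.12, adjusted p = 3.47e-08). Krt8 stood at 159 and 164 CPM in line 2, against 411 and 391 CPM in line 1 and 214, 194 and 214 CPM in sgScr (log2 -1.31 ± 0.09, adjusted p = 1.79e-07). Both were lower in line 2, and so was the mucin Muc1 (log2 -2.22 ± 0.32). Members that were higher included Gata6, at 5.05 and 4.57 CPM in line 2 and 1.01 and 1.17 CPM in line 1 (log2 2.14 ± 0.33), and the filament partner of Krt8, Krt18, at 957 and 1048 CPM in line 2 and 740.0 and 764 CPM in line 1 (log2 0.41 ± 0.09), both named after their values were seen. The higher members numbered 3, 3, 2 and 3 without line 2 replicate 1, line 2 replicate 2, line 1 replicate 1 or line 1 replicate 2. The columnar markers Tff1, Tff2, Muc5ac, Hnf4a and Cldn18 were at 0 to 0.107 CPM in the 4 line libraries.

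Mesenchymal and positional genes also lay on the higher side. The list of epithelial-mesenchymal transition genes had 5 higher and 0 lower of 13 tested, with a median of 0.29. Beside Twist1, its paralog Twist2 stood at 26.0 and 27.5 CPM in line 2, against 8.42 and 7.45 CPM in line 1 and 27.9, 29.0 and 30.0 CPM in sgScr (log2 1.75 ± 0.13). Tgfbi, a TGF-beta-induced matrix protein, stood at 74.6 and 68.1 CPM in line 2, against 19.2 and 18.6 CPM in line 1 and 46.8, 46.8 and 62.4 CPM in sgScr (log2 1.91 ± 0.14). The actin-binding protein gene Cald1 stood at 71.8 and 58.6 CPM in line 2, against 22.4 and 29.4 CPM in line 1 and 37.5, 36.3 and 55.3 CPM in sgScr (log2 1.34 ± 0.19). Line 2 was above line 1 in all 3, and Twist2 in line 2 was just below sgScr. Of the homeobox cluster genes, which encode body position, 8 were higher and 0 lower of 13 tested, with a median of 1.24, and 3, 6, 6 and 5 were higher without line 2 replicate 1, line 2 replicate 2, line 1 replicate 1 or line 1 replicate 2. Hoxa3 stood at 8.62 and 6.88 CPM in line 2, against 1.65 and 0.757 CPM in line 1 and 9.86, 9.67 and 8.95 CPM in sgScr (log2 2.67 ± 0.28). Hoxa4 (log2 2.24 ± 0.34) and Hoxa5 (2.11 ± 0.35) had the same order, with sgScr highest, line 2 next and line 1 lowest. A further 22 genes of that list were not tested, and 12 of these had no count in either line.

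The TGF-beta pathway itself held differences of either sign. Among receptors and Smads, 1 was higher and 2 lower of 15 tested, with a median of 0.12. That is 20% in either direction, below the 26.3% of all genes tested. The co-repressor Ski was higher (log2 0.36 ± 0.10) and its relative Skil lower (-0.42 ± 0.13), and both calls depended on single libraries. Ski lost its call without line 2 replicate 1 or line 1 replicate 2 (adjusted p = 0.192 and 0.180), and Skil without line 2 replicate 2, line 1 replicate 1 or line 1 replicate 2 (adjusted p = 0.222, 0.143 and 0.0873). Ligands and latent binding proteins had 4 higher and 3 lower of 15. Tgfb3 stood at 7.87 and 7.97 CPM in line 2, against 1.44 and 1.34 CPM in line 1 and 2.88, 2.04 and 2.40 CPM in sgScr (log2 2.50 ± 0.26), and line 2 lay above both other groups. Ltbp2, of the latent TGF-beta binding family, stood at 20.2 and 15.5 CPM in line 2, against 45.5 and 42.9 CPM in line 1 and 0.721, 0.632 and 0.767 CPM in sgScr (log2 -1.30 ± 0.14), with line 1 highest. Its relatives Ltbp4 (log2 0.82 ± 0.12) and Ltbp1 (1.36 ± 0.23) were higher in line 2. Target genes had 6 higher and 4 lower of 25, with a median of 0.07. Thbs1, a matrix protein that activates latent TGF-beta, stood at 14.3 and 10.7 CPM in line 2, against 28.0 and 29.3 CPM in line 1 and 9.08, 7.48 and 8.85 CPM in sgScr (log2 -1.18 ± 0.16). Leaving out line 2 replicate 1, line 2 replicate 2, line 1 replicate 1 or line 1 replicate 2 left 3, 5, 5 and 3 higher and 3, 2, 2 and 2 lower target genes, and 2, 2, 2 and 1 lower ligand genes. With all libraries 40% of the target genes passed in either direction, beside 26.3% of all genes tested. In the BMP and Id list 4 were higher and 2 lower of 17 (3, 1, 3 and 1 higher and 0, 0, 0 and 0 lower in the same order). Id3, an inhibitor of bHLH factors and a BMP target, stood at 214 and 226 CPM in line 2, against 152 and 141 CPM in line 1 and 43.3, 43.9 and 43.1 CPM in sgScr (log2 0.58 ± 0.09), with both lines above sgScr. The low receptor gene Bmpr1b had 2 counts in line 2 and 22 in line 1, a ratio of 0.0862 with a 95% counting interval of 0.00982 to 0.350.

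Other signalling lists were likewise mixed. The Notch list had 6 higher and 2 lower of 16 tested, with a median of 0.44. The ligand Jag1 stood at 92.2 and 80.3 CPM in line 2, against 53.4 and 50.4 CPM in line 1 and 57.6, 56.0 and 60.2 CPM in sgScr (log2 0.73 ± 0.10). The target Hes1 stood at 86.4 and 98.3 CPM in line 2, against 53.6 and 57.1 CPM in line 1 and 53.6, 61.2 and 56.9 CPM in sgScr (log2 0.74 ± 0.11). For both, line 2 lay above line 1 and sgScr. The glycosyltransferase Lfng, on chromosome 5, was lower (log2 -0.93 ± 0.11). Of the Wnt genes 5 were higher and 7 lower of 26, with the secreted inhibitors Sfrp1 (log2 1.09 ± 0.13) and Dkk3 (1.16 ± 0.16) higher and the ligand Wnt10a (-0.69 ± 0.09) lower. EGF-family genes had 3 higher and 3 lower of 18. The receptor Egfr stood at 262 and 234 CPM in line 2, against 155 and 166 CPM in line 1 and 86.6, 77.4 and 101 CPM in sgScr (log2 0.63 ± 0.11), and the ligand Ereg, on chromosome 5, at 39.4 and 42.3 CPM in line 2, against 94.2 and 93.5 CPM in line 1 and 48.6, 55.6 and 44.5 CPM in sgScr (log2 -1.20 ± 0.11). ERK feedback and immediate early genes had 6 higher and 4 lower of 30, and YAP/TAZ targets 4 higher and 5 lower of 26. From the YAP/TAZ list, Igfbp3, an IGF-binding protein, stood at 217 and 209 CPM in line 2, against 574 and 561 CPM in line 1 and 392, 396 and 375 CPM in sgScr (log2 -1.42 ± 0.09, adjusted p = 4.93e-08). Matrix metalloproteinase and plasminogen genes had 3 higher and 4 lower of 19. The protease Plau was higher (log2 0.93 ± 0.12) and its receptor Plaur lower (-0.88 ± 0.15). Plau lies in the first part of chromosome 14, where most genes were higher in line 2. The counts of these lists were small. They moved when line 2 replicate 1, line 2 replicate 2, line 1 replicate 1 or line 1 replicate 2 was left out. The lower Wnt genes were then 4, 3, 4 and 4, the higher ERK genes 2, 4, 3 and 3, the lower ERK genes 4, 2, 3 and 3 and the higher metalloproteinase genes 2, 2, 1 and 2. The higher EGF-family genes were 1, 2, 1 and 1 and the lower ones 2, 1, 1 and 1, and the higher YAP/TAZ targets 1, 1, 1 and 2 and the lower ones 3, 3, 3 and 3.

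**Figure D3:**
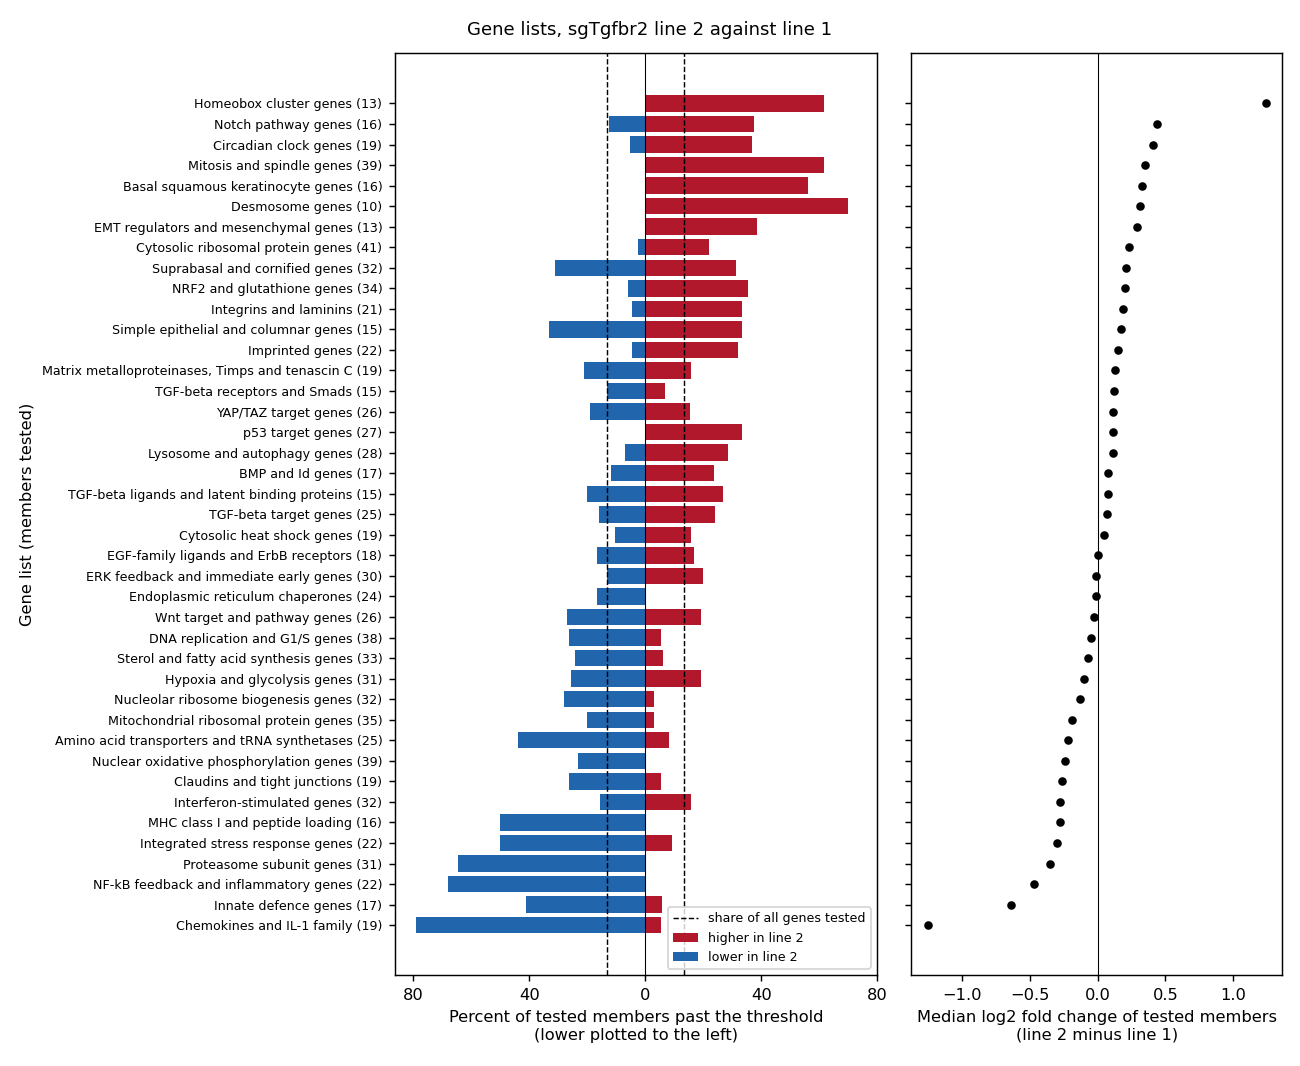
Gene lists with at least 10 tested members, ordered by median log2 fold change. Left, the percent of tested members higher in line 2 (red, to the right) and lower (blue, to the left), with dashed lines at the 13.2% and 13.1% of all genes tested; right, the median, from 1.24 for homeobox cluster genes to -1.25 for the chemokine and IL-1 list.

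Mitosis genes leaned higher in line 2, while the median of DNA replication genes lay near 0. Mitosis and spindle genes had 24 higher and 0 lower of 39 tested, with a median of 0.35. Prc1, which bundles microtubules of the midzone, stood at 300.1 and 318 CPM in line 2, against 196 and 209.5 CPM in line 1 and 214, 228 and 228 CPM in sgScr (log2 0.61 ± 0.09). Cdc25b, a phosphatase that starts mitosis, stood at 162 and 155 CPM in line 2, against 98.9 and 99.1 CPM in line 1 and 113, 120.5 and 125 CPM in sgScr (log2 0.68 ± 0.09). Top2a stood at 1022 and 1088 CPM in line 2, against 729 and 764 CPM in line 1 and 748, 795 and 812 CPM in sgScr (log2 0.50 ± 0.09). All 3 were higher in line 2 than in line 1 and sgScr. The count of higher genes was 17, 10, 8 and 10 without line 2 replicate 1, line 2 replicate 2, line 1 replicate 1 or line 1 replicate 2. DNA replication and G1/S genes had 2 higher and 10 lower of 38, with a median of -0.05 and 6, 6, 3 and 5 lower with the same libraries left out. Thymidylate synthase, Tyms, stood at 19.7 and 22.1 CPM in line 2, against 53.7 and 48.0 CPM in line 1 and 64.7, 70.5 and 52.2 CPM in sgScr (log2 -1.29 ± 0.14). The ribonucleotide reductase subunit Rrm2 stood at 79.6 and 85.3 CPM in line 2, against 151 and 131 CPM in line 1 and 189, 203 and 155 CPM in sgScr (log2 -0.78 ± 0.12). Tyms and the clamp loader subunit Rfc5 lie on chromosome 5, as do 6 of the 10 lower genes and 7 of the 38 tested. Off chromosomes 5 and 14 the median of the list was -0.01. With both chromosomes left out of the fit, an alternative chosen after seeing the data, 4 were lower.

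Stress response and amino acid supply genes leaned lower in line 2. The integrated stress response list had 2 higher and 11 lower of 22 tested, with a median of -0.30. Stc2, a secreted glycoprotein induced by ATF4, stood at 13.5 and 12.3 CPM in line 2, against 48.0 and 40.2 CPM in line 1 and 32.6, 30.1 and 28.2 CPM in sgScr (log2 -1.77 ± 0.13). Chac1, which degrades glutathione, stood at 10.4 and 15.4 CPM in line 2, against 33.4 and 32.6 CPM in line 1 and 28.0, 25.4 and 32.6 CPM in sgScr (log2 -1.38 ± 0.17). Ddit4, an inhibitor of mTORC1, was on the other side, at 540.4 and 600.5 CPM in line 2, against 308 and 328 CPM in line 1 and 439.6, 379.8 and 533 CPM in sgScr (log2 0.84 ± 0.13). Amino acid transporters and tRNA synthetases had 2 higher and 11 lower of 25. The cystine transporter Slc7a11 stood at 146 and 136 CPM in line 2, against 297 and 261 CPM in line 1 and 251, 247 and 241 CPM in sgScr (log2 -0.98 ± 0.09). Leaving out line 2 replicate 1, line 2 replicate 2, line 1 replicate 1 or line 1 replicate 2 left 6, 7, 6 and 7 lower genes of the stress response and 5, 6, 3 and 6 lower transporters and synthetases. NRF2 and glutathione genes, by contrast, had 12 higher and 2 lower of 34. Nqo1, a quinone reductase, stood at 51.4 and 61.7 CPM in line 2, against 22.3 and 24.4 CPM in line 1 and 93.7, 93.4 and 89.1 CPM in sgScr (log2 1.28 ± 0.11), and Gclc, the rate-limiting enzyme of glutathione synthesis, at 118 and 119 CPM in line 2, against 57.2 and 58.6 CPM in line 1 and 119, 104 and 119.7 CPM in sgScr (log2 1.03 ± 0.10). In both genes the libraries of line 2 lay nearer sgScr than those of line 1.

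Proteasome subunit genes had 0 higher and 20 lower of 31 tested, with a median of -0.35. Psmb3 stood at 132 and 167 CPM in line 2, against 243 and 227 CPM in line 1 and 347, 359.8 and 294 CPM in sgScr (log2 -0.65 ± 0.12). Psmc2, on chromosome 5, stood at 115 and 119.9 CPM in line 2, against 226 and 206 CPM in line 1 and 227, 258 and 194 CPM in sgScr (log2 -0.88 ± 0.12). Line 2 was the lowest of the 3 groups in both. Nuclear genes of oxidative phosphorylation had 0 higher and 9 lower of 39, with a median of -0.24. Uqcrq, a subunit of complex III, stood at 122 and 149.9 CPM in line 2, against 233 and 224 CPM in line 1 and 315, 303 and 281 CPM in sgScr (log2 -0.75 ± 0.11). Leaving out line 2 replicate 1, line 2 replicate 2, line 1 replicate 1 or line 1 replicate 2 gave 2, 15, 3 and 12 lower proteasome genes and 3, 8, 3 and 6 lower oxidative phosphorylation genes, and without sgScr replicate 2 or 3 the second count was 17 and 23. It was 14 to 23 under RLE, library totals, DESeq2 or other filters, and 24 with the line libraries alone. Genes with short transcripts were more often lower. Of 12540 autosomal genes with a known transcript length, split into 4 classes of about equal size, the class of shortest transcripts had a median log2 fold change of -0.10, with 300 higher and 514 lower genes. The class of longest transcripts had a median of 0.08, with 561 higher and 301 lower genes. The 2 libraries of line 2 differed from each other in the same way, by -0.09 and 0.09 (replicate 1 minus replicate 2), while those of line 1 differed by 0.00 and 0.01. The median longest transcript was 1819 bases for the proteasome list and 1521 for oxidative phosphorylation, within the shortest class (up to 2155 bases). It was 3671 bases for the mitosis list and 4650 for the desmosome list. The part of length in these lists was not tested. Cytosolic ribosomal protein genes, with a median of 1248 bases, had 9 higher and 1 lower of 41 and a median log2 fold change of 0.23. That count was 8, 3, 2 and 3 with the 4 line libraries left out in the same order, 22 without sgScr replicate 3, 25 with the line libraries alone and 5 without chromosomes 5 and 14. Rps24 and Rpl15 of that list lie in the first part of chromosome 14.

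Hypoxia and glycolysis genes had 6 higher and 8 lower of 31. The carbonic anhydrase Car9 stood at 93.3 and 92.3 CPM in line 2, against 27.4 and 31.2 CPM in line 1 and 54.2, 51.0 and 67.6 CPM in sgScr (log2 1.66 ± 0.13), and lactate dehydrogenase, Ldha, at 2299.8 and 2614 CPM in line 2, against 3873 and 3710.5 CPM in line 1 and 4449, 4844 and 4399.8 CPM in sgScr (log2 -0.63 ± 0.10), so the list's members differed in opposite directions. Sterol and fatty acid synthesis genes had 2 higher and 8 lower of 33, nucleolar ribosome biogenesis genes 1 higher and 9 lower of 32, mitochondrial ribosomal protein genes 1 higher and 7 lower of 35, and endoplasmic reticulum chaperones 0 higher and 4 lower of 24. Lysosome and autophagy genes had 8 higher and 2 lower of 28, and cytosolic heat shock genes 3 and 2 of 19. These counts also moved when line 2 replicate 1, line 2 replicate 2, line 1 replicate 1 or line 1 replicate 2 was left out. The lower nucleolar genes were then 2, 0, 0 and 5, the higher lysosome genes 2, 4, 2 and 3, the lower hypoxia genes 3, 4, 3 and 5 and the higher ones 5, 4, 1 and 5. The lower sterol genes were 3, 4, 3 and 5, the lower mitochondrial ribosomal genes 1, 4, 1 and 3 (12 without sgScr replicate 3) and the lower chaperones 1, 1, 1 and 1.

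Among clock, p53-target and imprinted genes, more passed as higher than as lower. Circadian clock genes had 7 higher and 1 lower of 19, with a median of 0.41. Cry2, a repressor of the clock, stood at 30.2 and 33.3 CPM in line 2, against 15.1 and 15.5 CPM in line 1 and 24.9, 24.9 and 32.1 CPM in sgScr (log2 1.05 ± 0.14). Bhlhe40 stood at 229 and 223 CPM in line 2, against 117 and 126 CPM in line 1 and 144, 147 and 212 CPM in sgScr (log2 0.90 ± 0.15). Both stood at about the sgScr level or above it in line 2. Genes known as p53 targets had 9 higher and 0 lower of 27, in organoids labelled as lacking p53, with a median of 0.11. Without line 2 replicate 1, line 2 replicate 2, line 1 replicate 1 or line 1 replicate 2, 5, 5, 4 and 7 clock genes and 5, 4, 3 and 5 p53 targets were higher. Sesn1, a stress-induced regulator of growth, stood at 47.1 and 50.0 CPM in line 2, against 27.9 and 31.1 CPM in line 1 and 33.8, 37.1 and 35.6 CPM in sgScr (log2 0.72 ± 0.11). Imprinted genes, expressed from the allele of a single parent, had 7 higher and 1 lower of 22. The other 14 did not pass, and the median was 0.15. Mest stood at 14.3 and 13.9 CPM in line 2, against 5.22 and 4.72 CPM in line 1 and 4.87, 4.47 and 5.37 CPM in sgScr (log2 1.50 ± 0.18), and Peg3 at 5.63 and 3.15 CPM in line 2, against 0.799 and 0.815 CPM in line 1 and 1.98, 1.65 and 2.15 CPM in sgScr (log2 2.46 ± 0.37).

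Position along the genome divided the lines on 2 chromosomes. Of the 872 tested genes on chromosome 5, 744 (85.3%) had a log2 fold change below 0, and 450 passed as lower and 27 as higher, 54.7% in all. The median was -0.42, beside -0.06 to 0.05 for the 17 autosomes other than 5 and 14, where 19.6 to 28.1% of genes passed. Set against sgScr in log2 CPM, the chromosome 5 median was 0.04 in line 2 and 0.41 in line 1, and 0.39 and 0.41 in the single line 1 libraries. The shift ran along the whole chromosome, since every window of 50 tested genes in a row had a median between -0.51 and -0.27. Windows on the other 17 autosomes ran from -0.27 to 0.24. Across the alternative settings the chromosome 5 median stayed between -0.46 and -0.42.

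**Figure D4:**
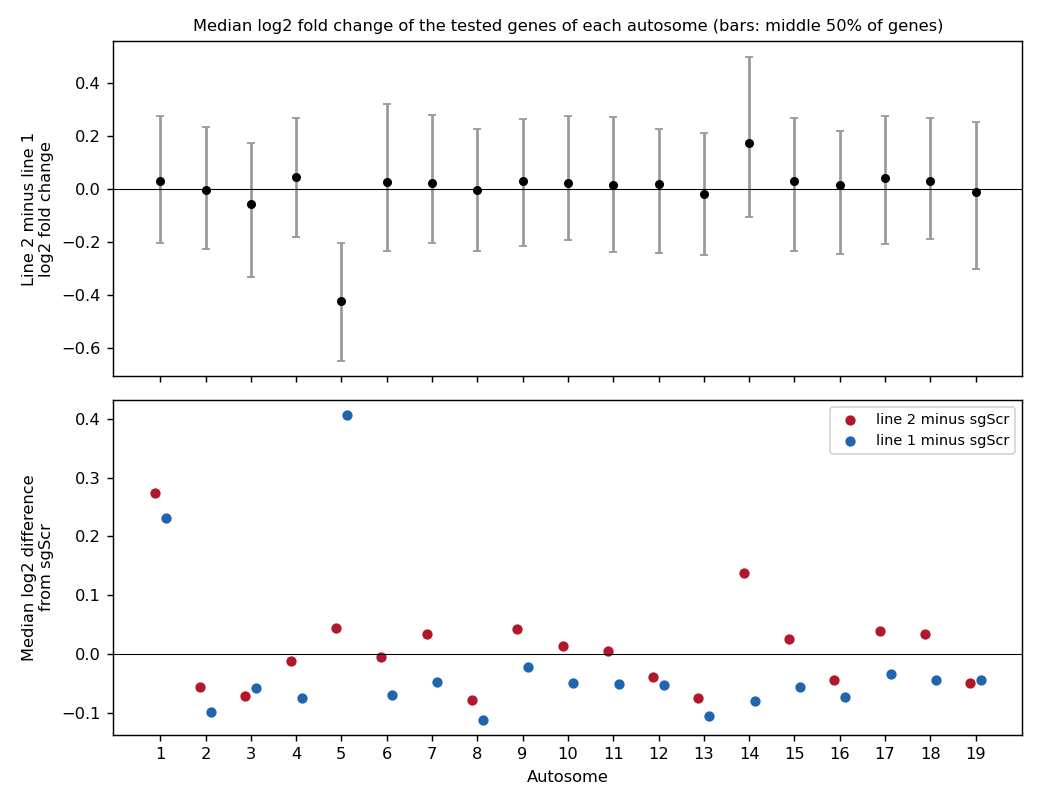
Upper panel, the median log2 fold change of line 2 over line 1 for the tested genes of each autosome, with bars for the middle 50% of genes. Lower panel, the median difference of line 2 (red) and of line 1 (blue) from sgScr; line 1 stands at 0.41 on chromosome 5, and both lines stand above sgScr on chromosome 1, at 0.27 in line 2 and 0.23 in line 1.

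On chromosome 14 the difference had the opposite sign and lay mainly in the first part. Between 3208488 and 31251317 (GRCm38), a stretch picked after its values were seen because its windows had medians above 0.5, 100 genes were tested. Of these, 91 lay above 0, 56 passed as higher and 1 as lower, and the median was 0.62. The median against sgScr was 0.60 in line 2 and -0.03 in line 1. The remaining 331 genes of the chromosome had a median of 0.07. The window with the highest median of all, 0.81, ran from Gng2 to Selk, where 35 of 50 genes were higher and 0 lower. Vcl, the focal adhesion protein vinculin, stood at 323 and 300.0 CPM in line 2, against 114 and 117 CPM in line 1 and 97.1, 82.4 and 92.5 CPM in sgScr (log2 1.43 ± 0.10). Il17rd, a feedback inhibitor of FGF signalling, stood at 32.9 and 33.5 CPM in line 2, against 7.03 and 7.28 CPM in line 1 and 2.52, 2.53 and 3.99 CPM in sgScr (log2 2.21 ± 0.18). The ribosomal protein gene Rps24 stood at 1163 and 1373 CPM in line 2, against 639 and 585 CPM in line 1 and 670.0, 720.5 and 632 CPM in sgScr (log2 1.05 ± 0.10). In these 3 genes the 2 libraries of line 2 lay above all others. Wnt5a lies in the same stretch. On chromosome 5, Prkg2, a cGMP-dependent kinase, stood at 44.2 and 42.6 CPM in line 2, against 111 and 113 CPM in line 1 and 30.5, 36.4 and 39.0 CPM in sgScr (log2 -1.37 ± 0.11), and Pkd2, a polycystin channel, at 29.6 and 25.7 CPM in line 2, against 54.8 and 61.1 CPM in line 1 and 42.9, 38.3 and 40.6 CPM in sgScr (log2 -1.06 ± 0.12). Tmprss11a, a serine protease gene on chromosome 5 named after its values were seen, went against its neighbours, with 317 counts in line 2 and 3 in line 1, a ratio of 100.1 with a 95% counting interval of 33.95 to 488.1. DNA copy number was not measured, and whether it differs between the lines was not tested. With both chromosomes left out of the fit, an alternative chosen after seeing the data, 2705 autosomal genes passed.

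**Figure D5:**
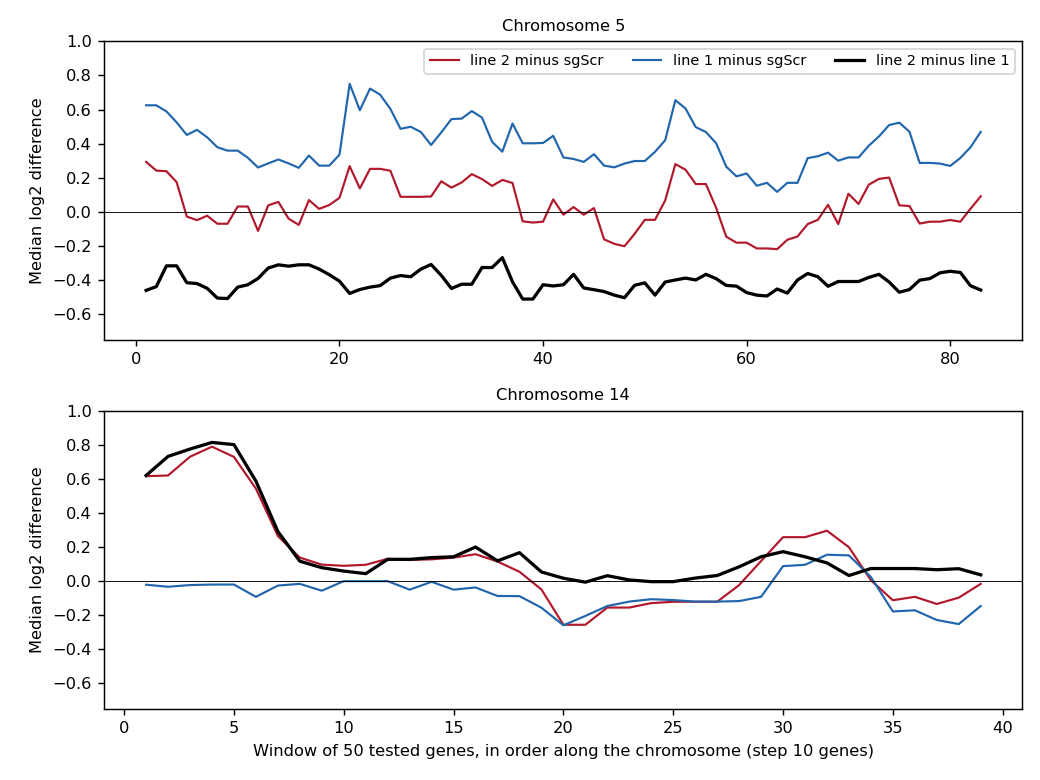
Median log2 difference in windows of 50 tested genes, in their order along chromosome 5 (top) and chromosome 14 (bottom), for line 2 over line 1 (black), line 2 against sgScr (red) and line 1 against sgScr (blue). On chromosome 5 the black line stays between -0.51 and -0.27, and on chromosome 14 it starts at up to 0.81 and falls to near 0.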

How the data were processed

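RNA was sequenced from mouse esophageal organoids, and the authors deposited a table of raw read counts per gene, which per the file headers holds 1 count column for each library. The submitters' processing notes name mm10 as the build and list DESeq2 1.26.0 and STAR 2.6.0a. Not given in the sources used here are the counting program, its annotation and its strand setting. Positions came from GENCODE M21 for 23376 symbols and from RefSeq for 264 more by symbol and 691 by synonym, and 90 had none.

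The counts were analysed in R 4.3.3 with edgeR 4.0.16 (limma 3.58.1). Low genes were removed with filterByExpr (minimum count 10), TMM set the scaling, and the quasi-likelihood F test (two-sided, Benjamini-Hochberg adjusted p of 0.05 over all genes tested) compared line 2 with line 1. The fit held the 2 line 2, 2 line 1 and 3 sgScr libraries, with 1 mean per group and a shared spread. An error after ± on a log2 fold change is a standard error, and every adjusted p is edgeR's unless another tool is named. Tested on simulated data (13283 genes, 100 changed per fold), the step recovered 81.8% of 2-fold and 94.9% of 4-fold changes, with 4.89% of calls false. There the lines shared the same mean in every other gene, and the noise had the spread fitted to these libraries. In the data 26.3% of all genes tested passed, so that false share does not carry over to the calls made here.

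Named were 6 fixed genes and the 12 highest and 12 lowest autosomal genes past the threshold (mean of at least 5 CPM over the line libraries, no overlap, no predicted genes). Named too were up to 4 genes by smallest p from each of the gene lists with at least 3 genes past it, and up to 6 from each extreme chromosome or window. Some genes that this rule names are not reported here. Genes outside this rule are marked as such. The members, lists and tests were chosen with earlier results of these data known, so no p is given over a list. Motifs were counted in RefSeq promoters (GRCm38.p6), using the first start listed for a gene.

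Alternatives were DESeq2's size factors (RLE) and library totals in place of TMM, DESeq2 1.42.0, limma-voom, no filter, a filter of 1 CPM in 2 libraries, the line libraries alone, autosomal genes alone, a replicate block, a threshold of 0.01, each library left out, and chromosomes 5 and 14 left out.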

Additional observations from a re-analysis of the deposited data

Results flagged for a closer look

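Rhox4a, a homeobox gene of a multigene cluster on the X chromosome, lay outside the autosomal comparison. It was flagged because it had a signal in 1 line that the control libraries lacked. It was at 0 and 0 CPM in line 2, against 18.2 and 19.5 CPM (mean 18.8) in line 1 and 0.361, 0.146 and 0.307 CPM in sgScr. Its near-identical copies make its own count uncertain.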

How the results depend on the processing

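The autosomal count of 3419 was 3094 to 3960 under RLE, library totals, DESeq2, limma-voom, both other filters and autosomal genes alone. It was 1712 (850 higher, 862 lower) at an adjusted p of 0.01, 5118 (2561 higher, 2557 lower) with the line libraries alone, and 2705 without chromosomes 5 and 14, a choice made after seeing the data. With 1 library left out it ran from 1405 to 4881, with 666 to 2414 higher, 739 to 2467 lower and 311 to 544 at least 2-fold higher. Of the calls left without line 1 replicate 1, 1386 of 1405 were among the 3419. The cause of these shifts was not tested, beyond the lone library that a left-out one leaves in its line. Among the genes named, the log2 fold change of Cdkn2b (0.08) ran from -0.0229 without line 1 replicate 1, where its sign changed (adjusted p = 0.941), to 0.1917 without line 1 replicate 2.

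The labels give line 2, line 1 and sgScr the same replicate numbers without saying what a number shares, and the deviations of same-numbered samples correlated at -0.01 (line 2 with line 1), -0.02 and 0.19 (line 2 with sgScr), and 0.07 and -0.105 (line 1 with sgScr). Not every pair was above 0.1, so the numbers are not taken as pairs. A replicate block gave 5184 calls (2550 higher, 2634 lower). Depth limits low genes, since 3 counts stand for 0.134 to 0.193 CPM.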

Other observations

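The Y-linked genes were lower in line 2. Ddx3y, an RNA helicase, stood at 22.9 and 23.8 CPM in line 2, against 61.0 and 65.1 CPM in line 1 and 61.9, 66.4 and 53.04 CPM in sgScr. Eif2s3y, a translation initiation factor subunit, stood at 17.3 and 23.03 CPM in line 2, against 57.8 and 57.9 CPM in line 1 and 81.2, 81.2 and 68.1 CPM in sgScr. The demethylases Kdm5d and Uty had the same order of lines, and all 4 tested Y genes passed as lower, with a median log2 fold change of -1.57. Xist, the transcript of the inactive X, had 0 to 4 counts in every library.

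On the X chromosome 77 genes (17.8%) were higher and 31 (7.16%) lower of 433 tested, 24.9% in all. Of all genes tested, 13.2% were higher and 13.1% lower, 26.3% in all. Bex1 stood at 20.2 and 20.97 CPM in line 2, against 3.20 and 3.38 CPM in line 1, and Bhlhb9 at 30.1 and 35.5 CPM in line 2, against 6.02 and 6.52 CPM in line 1. Apln, which encodes the peptide apelin, stood at 5.32 and 4.31 CPM in line 2, against 20.9 and 20.8 CPM in line 1. The amino acid transporter gene Slc6a14 stood at 11.1 and 8.88 CPM in line 2, against 30.9 and 33.3 CPM in line 1. These 4 were chosen after their values were seen.

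A further 2 autosomal genes were near 0 in 1 line. Rec8, a meiotic cohesin subunit, had 347 counts in line 2 and 9 in line 1. Cfap57, a cilia protein gene, had 7 counts in line 2 and 151 in line 1.

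Among the wider marker lists of other cell types, 2 of 5 tested muscle genes were higher and 0 lower, 1 of 4 fibroblast genes was higher and 0 lower, and 1 of 2 immune genes was higher and 0 lower. For endothelial genes 2 of 5 were higher and 1 lower, and for neural and melanocyte genes 0 of 2 passed. By gene list, the engineered loci had 3 higher and 1 lower of 5. Beside these small lists, 13.2% of all genes tested were higher and 13.1% lower. The fibroblast, immune, endothelial and engineered calls were fewer with some single line libraries left out, and the muscle count did not change. RLE or other filters also lowered the number of higher engineered loci.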
